A study of Mus musculus with 2 samples.

Results

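The subunits of the SWI/SNF chromatin remodeling complex were examined as 10 genes, *Smarca4*, *Smarca2*, *Smarcb1*, *Smarcc1*, *Smarcc2*, *Smarcd1*, *Smarcd2*, *Arid1a*, *Arid1b* and *Arid2*, taken from a fixed list of names out of 20246 protein-coding genes in the deposited table. They were found through the RefSeq accessions of that table, all 10 were present, and together they hold 17 of its 26968 protein-coding transcripts. The study compared steady state RNA of *Ebf1* -/- pre-pro-B cells, arrested before commitment to the B lineage, with that of *Rag2* -/- pro-B cells, committed to it. Both were C57BL/6 cells grown with Il-7 on OP-9 stromal cells, and the pre-pro-B cultures also received Scf and Flt3l. The pre-pro-B cells came from the livers of female embryos and the pro-B cells from the bone marrow of adult males, so cell type, genotype, sex, age, tissue of origin and cytokines cannot be told apart. There was 1 total RNA library per cell type, depleted of ribosomal RNA and of RNAs under 200 nt, strand-specific, and sequenced to about 90000000 single-end reads of 97 bp. No difference below therefore has a replicate check, and no test between the cell types was run here. The authors' own p-values, from a run without replicates, were not used. The error given is the 95% interval of each transcript, by its lower and upper limits, from the model of Cuffdiff, the authors' quantification program. Where a pair of values stands together, that of the pre-pro-B library comes first.

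SWI/SNF complexes use the energy of ATP to slide or evict nucleosomes and so open promoters and enhancers to transcription factors. In the BAF and PBAF forms, each complex has 1 ATPase, either Brg1 (*Smarca4*) or Brm (*Smarca2*). The core of these forms includes Snf5 (*Smarcb1*), a dimer of the scaffold subunits *Smarcc1* and *Smarcc2*, and 1 of the *Smarcd* (Baf60) proteins. *Arid1a* or *Arid1b* marks the BAF form and *Arid2* the PBAF form. Brg1 is known to be needed for early lymphocyte development, and SWI/SNF for the opening of B lineage loci.

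Expression is given as FPKM, fragments scaled to transcript length and library size, which is a level per length and can be compared between genes. FPKM were summed over the RefSeq transcripts of a gene. The log2 ratios compare pro-B with pre-pro-B cells after adding 1 FPKM to each value, and a gene counted as different at 2-fold. A gene entered the comparison at an FPKM of at least 1 in either library, which 10535 genes reached. All 10 subunits passed this limit in both libraries, and 17 of 17 of their transcripts had a quantification status of OK in both.

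*Smarca4* was the member that differed past 2-fold. Its FPKM was 30.2 in the pre-pro-B library against 121 in the pro-B library, 4.01-fold higher, with a log2 ratio of 1.97. The other 9 subunits lay within 2-fold, at log2 ratios from -0.85 to 0.57. A difference of 2-fold or more toward pro-B cells was found for 12.2% of all genes tested and toward pre-pro-B cells for 19.1%, so that 1 of 10 members higher and 0 of 10 lower is read against those shares. The median log2 ratio was 0.05 over the 10 members and -0.14 over all genes tested. Without *Smarca4*, the summed FPKM of the other 9 subunits was 242 in the pre-pro-B library against 256 in the pro-B library.

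**Figure D1:**
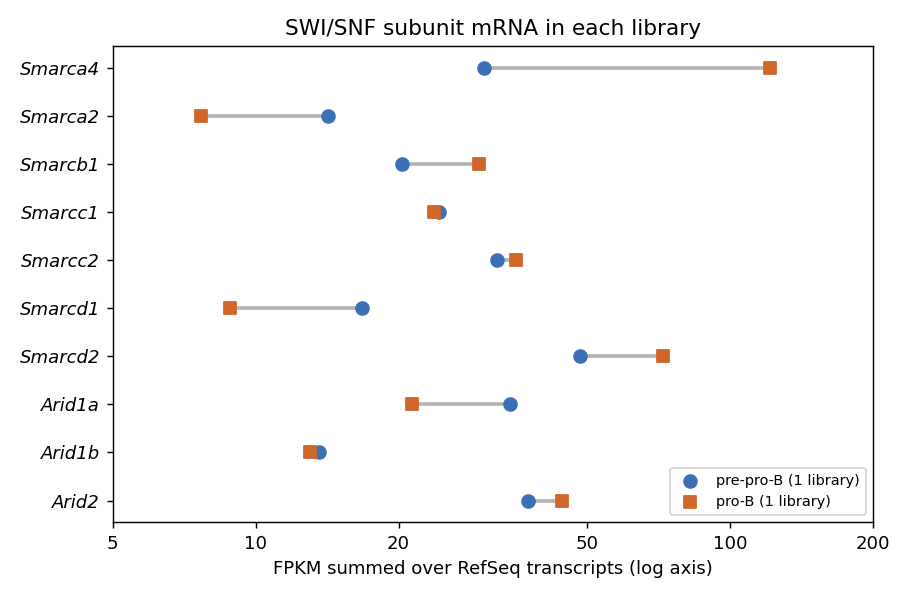
FPKM summed over RefSeq transcripts (log axis) for the 10 SWI/SNF subunits, with a circle for the pre-pro-B library and a square for the pro-B library, joined by a grey line. The longest line is that of *Smarca4*, from 30.2 to 121, while *Smarca2*, *Smarcd1* and *Arid1a* lie lower in pro-B cells and the symbols of *Smarcc1* and *Arid1b* almost coincide.

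The sequences that tell the RefSeq transcripts of a subunit apart bear on how far the values of single transcripts can be read, so the coding segments that are spliced in or out are shown first. They were taken from GENCODE transcripts on mm9, 5′ to 3′ on the strand of the gene. Capitals mark the optional segment and lower case the 15 bases on either side. The *Smarca4* transcripts NM_001174078, NM_011417 and NM_001174079 differ in length by 9 and then by 3 bases, which are the lengths of 2 short segments at chr9:21490457-21490465 and chr9:21504244-21504246.
Smarca4 first segment included: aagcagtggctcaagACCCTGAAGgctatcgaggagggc
Smarca4 first segment skipped: aagcagtggctcaaggctatcgaggagggc
Smarca4 second segment included: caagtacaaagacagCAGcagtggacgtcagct
Smarca4 second segment skipped: caagtacaaagacagcagtggacgtcagct
Both segments keep the reading frame, adding 3 codons and 1 codon. A read of 97 bases covers the first at 1.67% of its possible positions in the transcript and the second at 1.58%, so few reads separate these 3 transcripts.

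*Smarcb1* and *Smarcc2* also have optional segments in frame. NM_011418 of *Smarcb1* is 27 bases longer than NM_001161853, the length of a segment of 9 codons at chr10:75379518-75379544 on the minus strand. NM_001114096 of *Smarcc2* is 93 bases longer than NM_198160, the length of an exon of 31 codons at chr10:127918738-127918830. The main *Smarcc2* transcript, NM_001114097, is 342 bases longer than NM_198160, and whether it holds this exon was not examined.
Smarcb1 segment included: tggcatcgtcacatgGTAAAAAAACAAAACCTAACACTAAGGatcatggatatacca
Smarcb1 segment skipped: tggcatcgtcacatgatcatggatatacca
Smarcc2 exon included: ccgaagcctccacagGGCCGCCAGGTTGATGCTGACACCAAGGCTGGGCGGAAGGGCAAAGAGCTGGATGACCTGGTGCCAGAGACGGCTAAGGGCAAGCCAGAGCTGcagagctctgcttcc
Smarcc2 exon skipped: ccgaagcctccacagcagagctctgcttcc
Between genes the transcripts are easier to separate. Of the stretches of 32 bases in each member's longest transcript, 0% occurred in the named paralog, for *Smarca4* and *Smarca2*, *Smarcc1* and *Smarcc2*, *Smarcd1* and *Smarcd2*, and *Arid1a* and *Arid1b* alike. The share found in a coding transcript of any other gene was at most 0.663%, that of *Smarca2*.

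Of the ATPases, *Smarca4* was past 2-fold and *Smarca2* was not. *Smarca4* (chromosome 9 of mm9, 21420613 to 21508674) encodes Brg1. At about 90000000 reads its FPKM corresponds to roughly 17329 fragments in the pre-pro-B library and 69542 in the pro-B library. Its log2 ratio exceeded that of 95.5% of all genes tested, and its FPKM stood at the 75.1 percentile of those genes in the pre-pro-B library and at the 95.6 percentile in the other. By level it was number 5 of the 10 subunits in the pre-pro-B library and number 1 in the pro-B library. All 3 transcripts were higher in pro-B cells. The main transcript, NM_011417, had an FPKM of 22.6 (limits 0.599 and 47.4) in the pre-pro-B library against 85.5 (limits 0.683 and 205) in the pro-B library. NM_001174079, by its length the form without either segment, had an FPKM of 4.88 (limits 0 and 17.4) and of 22.4 (limits 0 and 84.1). NM_001174078, by its length the form with both, had an FPKM of 2.71 (limits 0 and 12.0) and of 13.5 (limits 0 and 63.5). The intervals of the libraries overlapped for each of the 3. The share of the main transcript was 74.9% in the pre-pro-B library against 70.4% in the pro-B library, so the difference was spread over all 3 transcripts at ratios from 3.77 to 5.00.

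*Smarca2* (chromosome 19, 26679650 to 26852811) encodes Brm, the alternative ATPase. Its FPKM was 14.2 in the pre-pro-B library against 7.68 in the pro-B library, 1.85-fold lower in the latter, with a log2 ratio of -0.81 that did not reach 2-fold. Both of its transcripts were lower in pro-B cells. The long transcript, NM_011416, had an FPKM of 8.30 (limits 0.663 and 16.3) and of 4.93 (limits 0.235 and 9.96). The short one, NM_026003, had an FPKM of 5.93 (limits 0 and 22.7) and of 2.76 (limits 0 and 11.8). In each case the intervals overlapped. The short transcript starts 143243 bases downstream of the long one, and its coding part has 237 codons with the stop codon against 1584; it shares 5 exons exactly with the long one. Its share of the *Smarca2* FPKM was 41.7% and 35.9%, and that of the long one 58.3% and 64.1%. Weighted by transcript length, as a share of reads, the long one held 80.6% and 84.1%.

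As *Smarca4* was higher and *Smarca2* lower in pro-B cells, the ratio between the ATPases necessarily differed more than the level of either gene. The level of *Smarca4* was 2.12 times that of *Smarca2* in the pre-pro-B library and 15.8 times in the pro-B library, a 7.43-fold difference between the ratios. As a share of the FPKM of both ATPases, *Smarca2* stood at 32.0% in the pre-pro-B library against 5.95% in the pro-B library. The summed level of the ATPases was 44.5 and 129. Among 12 remodeler ATPases of the SWI/SNF, ISWI, CHD and INO80 families, *Smarca4* was number 6 by FPKM in the pre-pro-B library and number 1 in the other, and of these it had the highest log2 ratio.

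**Figure D2:**
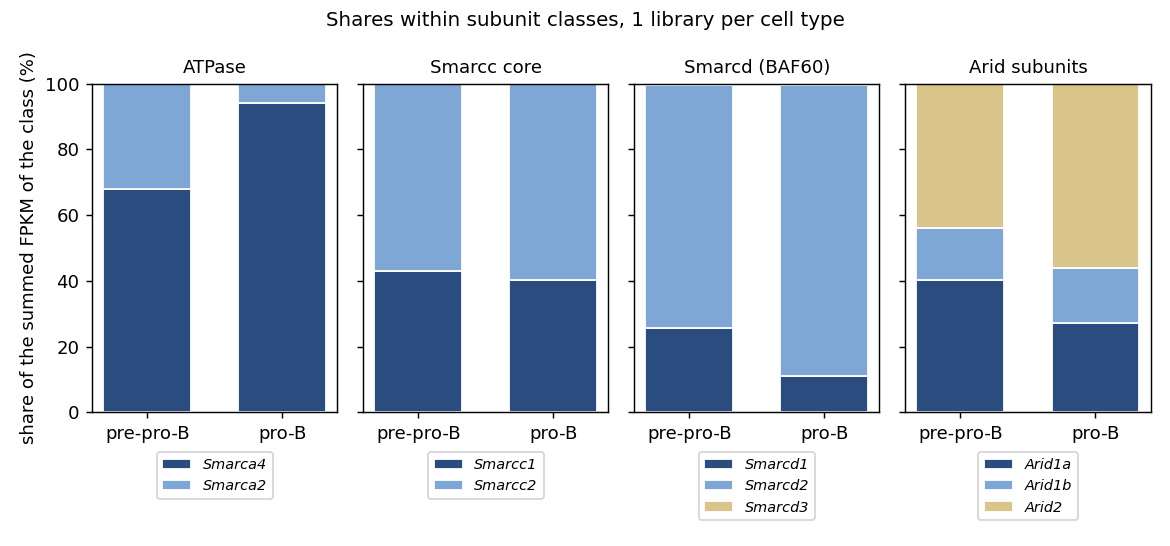
Share of each gene in the summed FPKM of its subunit class (%, stacked to 100), 1 bar per library, for the ATPases, the *Smarcc* scaffolds, the *Smarcd* subunits and the *Arid* subunits. The *Smarca4* part of the ATPase bar is 68.0% in the pre-pro-B library against 94.0% in the pro-B library, the *Smarcd1* part 25.6% and 10.9%, and the *Smarcc* bars are nearly alike.

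The scaffold genes *Smarcc1* and *Smarcc2* had similar levels in both libraries. *Smarcc1* (chromosome 9, 110034541 to 110142682), a scaffold subunit that holds the complex together, had an FPKM of 24.3 (limits 1.32 and 70.3) in the pre-pro-B library against 23.8 (limits 1.25 and 66.0) in the pro-B library. Its log2 ratio of -0.03 turned positive, to 0.08, when the libraries were scaled by the median ratio of all genes. *Smarcc2* (chromosome 10, 127896292 to 127927229), the scaffold paralog, had an FPKM of 32.3 and of 35.4. The ratio of *Smarcc1* to *Smarcc2* was 0.754 in the pre-pro-B library against 0.673 in the pro-B library, the smallest shift of the paralog pairs compared. Nearly all of the *Smarcc2* level came from NM_001114097, with 93.0% in the pre-pro-B library (FPKM 30.0, limits 2.19 and 58.4) and 95.2% in the pro-B library (FPKM 33.7, limits 3.56 and 64.2). NM_001114096, by its length the form with the exon of 93 bases shown above, had an FPKM of 2.26 (limits 0 and 10.6) and of 1.67 (limits 0 and 8.62). NM_198160 lay near 0, at 0.000628 FPKM in the pre-pro-B library and 0.0164 FPKM in the pro-B library. By the same approximation these are worth under 1 fragment and about 6.8 fragments. It is the member transcript that did not reach an FPKM of 1.

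*Smarcb1* (chromosome 10, 75359514 to 75384362) encodes Snf5, a core subunit known as a tumor suppressor. Its FPKM was 20.3 in the pre-pro-B library against 29.6 in the pro-B library, a ratio of 1.46. NM_011418, by its length the form with the segment of 27 bases, accounted for most of that, with an FPKM of 13.0 (limits 0.293 and 29.5) and of 21.5 (limits 0.179 and 45.4). The transcript without it, NM_001161853, had an FPKM of 7.31 (limits 0 and 19.9) and of 8.06 (limits 0 and 23.5). The form with the segment thus held 64.0% and 72.7% of the gene's FPKM.

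*Smarcd1* and *Smarcd2*, whose products connect the complex to transcription factors, both lay within 2-fold, *Smarcd1* on the low side and *Smarcd2* on the high side. *Smarcd1* (chromosome 15, 99532718 to 99544426) had an FPKM of 16.8 (limits 1.05 and 40.9) in the pre-pro-B library against 8.82 (limits 0.464 and 23.5) in the pro-B library. It was 1.90-fold lower in pro-B cells, the member nearest to 2-fold on the low side. *Smarcd2* (chromosome 11, 106124493 to 106134286), known for its role in granulocyte development, had an FPKM of 48.3 and of 72.0. That was the highest level of the 10 in the pre-pro-B library and next to *Smarca4* in the pro-B library. The ratio of *Smarcd1* to *Smarcd2* was 0.347 in the pre-pro-B library against 0.122 in the pro-B library. *Smarcd3*, the third gene of this class, added an FPKM of 0.333 and 0.222.

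The transcripts of *Smarcd2* did not move alike. The main one, NM_031878, had an FPKM of 42.2 (limits 3.02 and 83.8) in the pre-pro-B library against 54.5 (limits 2.51 and 113) in the pro-B library, a ratio of 1.29. NM_001130187 had an FPKM of 6.09 (limits 0 and 22.3) and of 17.5 (limits 0 and 50.3), a ratio of 2.88. The share of NM_001130187 was 12.6% in the pre-pro-B library against 24.3% in the pro-B library, with overlapping intervals for both transcripts.

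Of the *Arid* subunits, *Arid1a* was the one that differed most. *Arid1a* (chromosome 4, 133234923 to 133312684), a DNA-binding subunit of BAF, had an FPKM of 34.3 (limits 2.58 and 95.4) in the pre-pro-B library against 21.4 (limits 0.991 and 60.7) in the pro-B library, 1.60-fold lower. *Arid1b* (chromosome 17, 4994332 to 5347656), its paralog, had the lowest level of the 10 in pre-pro-B cells and differed little between the libraries. Its FPKM was 13.6 (limits 0.586 and 31.0) and 13.0 (limits 0.576 and 30.5), and its log2 ratio of -0.06 became 0.05 under scaling by the median ratio. *Arid2* (chromosome 15, 96117953 to 96235894), the subunit of PBAF, had an FPKM of 37.5 (limits 8.35 and 66.8) and of 44.1 (limits 9.29 and 79.0). *Arid1a* and *Arid2* were at similar levels in pre-pro-B cells, with a ratio of 0.914, whereas in pro-B cells the ratio was 0.484. The share of *Arid2* in the summed FPKM of these 3 genes was 43.9% in the pre-pro-B library against 56.2% in the pro-B library.

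In order of level, pre-pro-B cells had *Smarcd2*, *Arid2*, *Arid1a*, *Smarcc2*, *Smarca4*, *Smarcc1*, *Smarcb1*, *Smarcd1*, *Smarca2* and *Arid1b*. In pro-B cells the order was *Smarca4*, *Smarcd2*, *Arid2*, *Smarcc2*, *Smarcb1*, *Smarcc1*, *Arid1a*, *Arid1b*, *Smarcd1* and *Smarca2*. Neighbours in these orders cannot be ranked firmly, since the intervals of the main transcripts overlapped for 45 of 45 pairs of members in each library. Between the libraries, 0 of the 16 member transcripts with an FPKM of at least 1 had intervals that did not overlap, against 4.40% of all such transcripts. With no replicates, the authors had Cuffdiff estimate the dispersion from both cell types pooled, and 7 of the 17 member transcripts had a lower limit of 0 in both libraries, so that their intervals overlap whatever the upper limits.

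**Figure D3:**
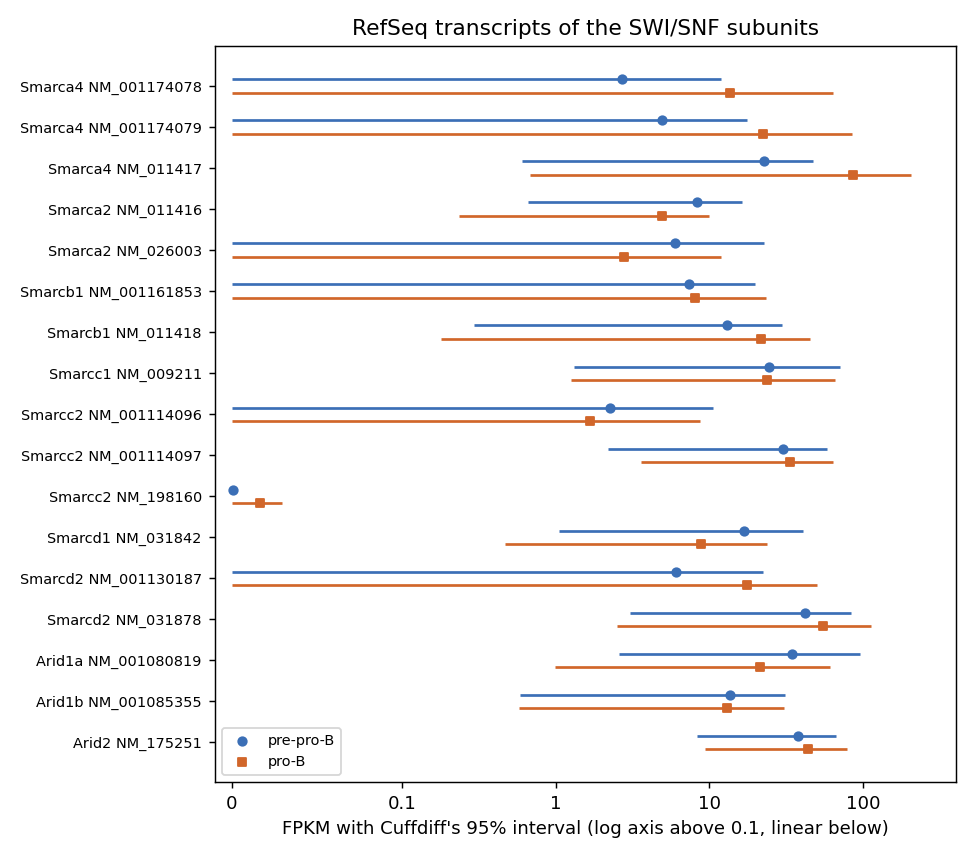
FPKM of the 17 RefSeq transcripts of the 10 subunits with the 95% interval of Cuffdiff as a horizontal line, circles for pre-pro-B cells and squares for pro-B cells (axis logarithmic above 0.1 and linear below). The lines of the libraries overlap for the 16 transcripts that reach an FPKM of 1, and NM_198160 of *Smarcc2* lies near 0 in both.

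The rest of the complex was described with a list of 21 further subunits, of which 17 reached an FPKM of at least 1. Of these, 2 were higher in pro-B cells past 2-fold and 0 lower, with a median log2 ratio of 0.08, beside the 12.2% and 19.1% of all genes. *Bcl7a*, an accessory subunit first found in a B cell lymphoma translocation, had the largest log2 ratio of the SWI/SNF subunits tested. Its FPKM was 8.67 (limits 0.301 and 18.9) in the pre-pro-B library against 140 (limits 10.1 and 291) in the pro-B library, a log2 ratio of 3.87, and the intervals overlapped between 10.1 and 18.9. *Dpf1*, a subunit best known from neurons, had an FPKM of 0.217 and of 1.90, and so entered the comparison only through the pro-B library, where it is higher. *Actb*, the beta-actin that the complex shares with the cytoskeleton, had an FPKM of 1158 and of 1060. *Pbrm1*, the polybromo subunit of PBAF, had an FPKM of 57.2 and of 60.6. The other subunits tested lay between log2 ratios of -0.89 and 0.91. At the upper end, *Bicra* (1.61 and 3.90) was 2.42-fold higher as a plain ratio and within 2-fold only after 1 is added. *Actl6b*, the neuronal actin-like subunit, was listed at 0 in both libraries.

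**Figure D4:**
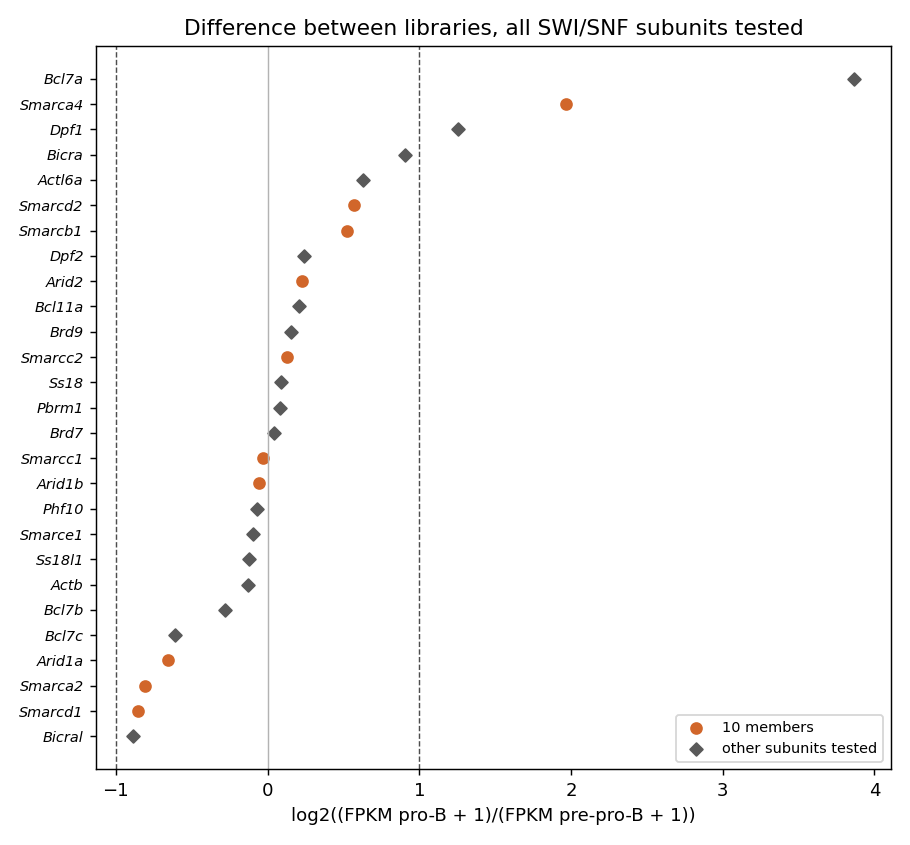
Log2 ratio of the pro-B library over the other (1 added to each FPKM) for the 10 members (circles) and the 17 other SWI/SNF subunits tested (diamonds), sorted, with dashed lines at 2-fold. *Bcl7a* at 3.87 and *Smarca4* at 1.97 stand furthest to the right, *Dpf1* lies at 1.25, and none lies left of the lower dashed line.

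**Figure D5:**
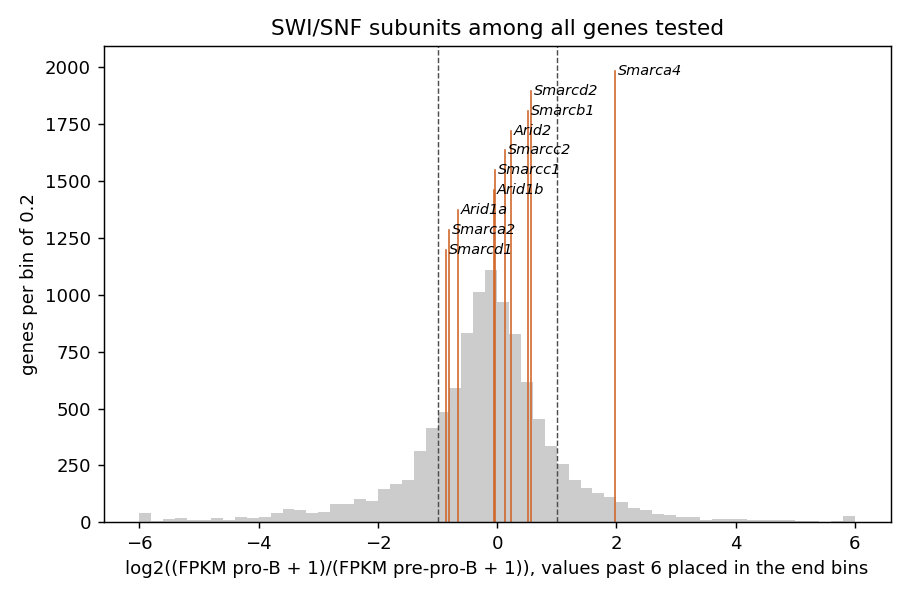
Number of genes per bin of log2 ratio for the 10535 genes tested (grey bars), with a vertical line at each of the 10 subunits (line height only separates the names) and dashed lines at 2-fold. *Smarca4* stands beyond the upper dashed line and the other 9 within both lines.

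The labels of the libraries were compared with marker genes. The 7 B lineage markers (*Igll1*, *Vpreb1*, *Pax5*, *Cd79b*, *Blnk*, *Cd79a* and *Cd22*) were all higher in pro-B cells past 2-fold, beside 12.2% of all genes. Their summed FPKM was 7.05 in the pre-pro-B library against 1860 in the pro-B library. The 3 progenitor markers *Kit*, *Flt3* and *Cd34* were all lower past 2-fold, beside 19.1% of all genes, with sums of 944 and 2.82. *Cd79a*, *Vpreb1* and *Cd22* reached an FPKM of 1 only in the pro-B library, and *Kit* and *Flt3* only in the pre-pro-B library. The filter thus fixed the direction of those genes. Of the targeted genes, *Ebf1* had an FPKM of 64.0 in its own null library and 273 in the other, and *Rag2* had 22.9 in its own null library and 34.5 in the other, so neither was at 0. Which exons these reads came from is not shown by the values, so they do not check the deletions. Markers of other lineages and of stroma were also compared between the libraries. Of 10 myeloid markers, 6 reached an FPKM of 1 in either library. All 6 were lower in pro-B cells past 2-fold, beside 19.1% of all genes, with 921 and 9.38 as the sums over the list. They were *Tyrobp* (463 and 1.28), *Fcer1g* (395 and 1.46), *Mpo* (35.7 and 0.122), *Itgam* (19.7 and 6.40), *Lyz2* (5.39 and 0) and *Cebpa* (2.48 and 0.116). Of 8 T lineage markers, 4 reached an FPKM of 1 and all 4 were lower past 2-fold (*Tcf7*, *Lck*, *Cd3g* and *Cd4*), beside 19.1% of all genes. The sums over that list were 116 and 3.25. *Mpo*, *Lyz2*, *Cebpa*, *Tcf7*, *Cd3g* and *Cd4* entered only through the pre-pro-B library, so the filter fixed their direction. Of the granule enzymes in the myeloid list, *Mpo* and the lysozyme gene *Lyz2* were thus present in pre-pro-B cells, and *Elane* and *Ctsg* were listed at 0 in both libraries. Of 11 stromal markers, 8 had a higher FPKM in pro-B cells, though *Col1a1* (0.207 and 0.522) and *Pdgfra* (0.327 and 0.822) stayed under 1 in both libraries. The share of all genes that were higher without a fold limit was not counted. Past 2-fold, *Col1a2* (0.707 and 2.82), *Fn1* (1.16 and 5.16) and *Cxcl12* (0.618 and 2.92) were higher, beside 12.2% of all genes. *Pdgfrb* (15.9 and 0.377) and *Thy1* (5.95 and 0) were lower past 2-fold, beside 19.1%. Of the stromal markers past 2-fold in either direction, only *Fn1* reached an FPKM of 1 in both libraries. The sum over the list was 26.4 and 17.6, and *Postn* was listed at 0 in both libraries. The part of other cells in the levels of the subunits was not tested, and in bulk RNA fewer cells of a type and less RNA per cell cannot be told apart.

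Because the libraries differ in *Ebf1* genotype, the promoters of the subunits were searched for CCCNNGGG, the palindromic core that Ebf1 recognizes. RefSeq promoter windows of 300 bases on GRCm38, spanning a transcription start, were at hand for 9 of the members. The motif, searched as these letters on both strands, was present in 1 of their 10 windows, 1 of those of *Arid1a*, against 13.7% of all promoter windows. The window of *Smarca4* did not hold these letters.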

How the data were processed

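The authors trimmed the single-end reads by a sliding quality window and aligned them to mm9 with TopHat (1.5 per the labels; the study's parameter list gives another version), allowing up to 20 alignments per read. They then estimated FPKM per RefSeq transcript with Cuffdiff 2.1.1, with correction for multi-reads and bias, at least 10 alignments for a test, and Cuffdiff set to leave the libraries unscaled. The deposited FPKM and their 95% limits were used as they stand. A further deposited table holds the authors' fold changes, p-values and q-values and was not used. The TopHat and Cuffdiff versions are those of the submitters' processing notes.

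Transcripts were named through a RefSeq gene table (GRCm38), which matched 26169 of 26580 accessions; 161 more transcripts took the name of their locus, and 256 stayed unnamed. Gene positions and the printed segments are from GENCODE on NCBIM37 (mm9). FPKM were summed per gene. The value compared was log2((FPKM + 1)/(FPKM + 1)), pro-B over pre-pro-B, called at 2-fold, over genes reaching an FPKM of 1 in either library. With 1 library per cell type no significance test was run. Fragments were approximated as FPKM times length times the sequenced reads of a library, about 90000000 for both, which covers counting error only. The aligned reads of each library were not used, so these fragment numbers are rough. The members, lists and paralog pairs were chosen with earlier results of these data known. Named were all members and their transcripts with at least 10% of the gene. Of the other lists, genes past 2-fold and the 3 most abundant of each were named. *Bicra*, *Bicral*, *Dpf3*, *Znhit1*, *Smarca5*, *Elane*, *Ctsg*, *Postn*, *Actl6b*, *Smarcd3* and the less abundant transcripts were added after their values were seen. Alternatives were other pseudocounts (0.1 and none), filters, TPM and median-ratio scaling, the most abundant transcript per gene, and shares weighted by length. The 2-fold calling step was run on simulated data with known changes far past 2-fold, in well expressed genes with little noise. That run checks the code only and does not bear on the calls in these libraries. Python 3.11.15, numpy 2.4.6, pandas 2.3.3 and matplotlib 3.10.9 were used. *Chd7*, *Srcap* and 1 B lineage marker are not reported here.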

Additional observations from a re-analysis of the deposited data

How the results depend on the processing

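*Smarca4* stayed past 2-fold under all 7 alternatives, with log2 ratios from 1.87 to 2.09, and the count of members past 2-fold stayed at 1 higher and 0 lower. For *Smarca4* most of these settings could not have given another call. The filters only change which genes enter and left its ratio at 1.97. At its levels the other pseudocounts and the scalings shift the ratio only a little. Its lowest value, 1.87, came from the most abundant transcript. *Smarcd1* came closest to a further call, with a lowest log2 ratio of -0.99. The signs of *Smarcc1* and *Arid1b* turned positive under median-ratio scaling, by 0.12 on the log2 scale before 1 is added; the other 8 kept theirs. TPM scaling, by -0.09 before 1 is added and with the added 1 weighing less, placed 2 other subunits past 2-fold on the low side, *Bicral* at -1.03 and *Dpf3*, listed at 0 in pro-B cells, at -1.01. With a pseudocount of 0.1 or none, and under either scaling, 3 other subunits were higher past 2-fold instead of 2, with *Bicra* added. With an FPKM of at least 1 required in both libraries, 1 other subunit was higher, *Bcl7a*, and 999 genes were lower instead of 2015, since fewer genes enter. Weighting by transcript length raised the share of the long *Smarca2* transcript from 58.3% to 80.6% in pre-pro-B cells and from 64.1% to 84.1% in pro-B cells. Of the values compared, 5 counts and shares were labelled as moved. Another 74 gene counts, paralog ratios and transcript shares and 72 single values were labelled as the same. For counts this meant within 1.5-fold, so that 2 and 3 were treated as alike. Log2 values had to stay on their side of 2-fold and within 1.5-fold, and shares within a fixed number of percentage points. No paired analysis was possible because each cell type has 1 library, and for the same reason none could be left out.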

Other observations

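Other remodeler families were listed beside SWI/SNF. Of 42 genes of the ISWI, CHD and NuRD, and INO80 and SRCAP families with an FPKM of at least 1, 3 were higher in pro-B cells past 2-fold and 3 lower, with a median log2 ratio of 0.04, beside 12.2% of all genes higher and 19.1% lower. *Chd4*, the main ATPase of the NuRD complex, which pairs remodeling with histone deacetylation, had an FPKM of 126 in the pre-pro-B library against 45.8 in the pro-B library, 2.75-fold lower, while its paralog *Chd3* had 15.4 and 38.0. *Mta3* (42.1 and 11.2) and *Hdac1* (11.2 and 1.53), further NuRD subunits, were lower in pro-B cells, and *Mbd2*, which reads methylated DNA, was higher at 54.9 and 234. *Hdac2*, the deacetylase paralog, had an FPKM of 70.8 and 62.8. *Cecr2*, a partner of ISWI, had an FPKM of 1.57 and 192. *Rbbp4* (57.2 and 61.4) and *Rbbp7* (46.3 and 67.7), histone chaperones found in several complexes, and *Smarca5*, the main ISWI ATPase (46.6 and 67.3), lay within 2-fold. All 15 INO80 and SRCAP genes tested lay within 2-fold after 1 is added. *Znhit1* (5.83 and 11.8) was 2.02-fold higher as a plain ratio. The most abundant were *Yy1* with an FPKM of 58.3 and 52.8, *Vps72* with 31.7 and 25.5 and *Ino80b* with 30.1 and 22.6. These are single libraries with no replicate check.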
